A study of Mus musculus with 2 samples.

Results

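The Ccdc genes are named for a coiled-coil domain, in which alpha-helices wind around each other, and carry a number in place of a function. They were taken as every gene of the deposited table whose symbol begins with Ccdc and a number, which gave 62 of 4788 genes. The table compares 2 libraries from the testis of adult wild type mice. The input library was made from RNA of the testis lysate before precipitation, and the FMRP RIP library from RNA that came down with an anti-FMRP antibody from that lysate. With 1 library per group there was no replicate and no test, the number of mice behind each library is not given in the sources used here, and no IgG library was analysed. Both libraries come from whole testis, so RNA of all its cell types is mixed, and fewer cells of a type cannot be told apart from less RNA per cell.

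Coiled coils act as rods, rulers and clamps, and genes that share the Ccdc name need not descend from a common ancestor. In the testis, Ccdc proteins are known from the axoneme, the microtubule core of the sperm flagellum, from centrioles, from which the axoneme grows, and from the acrosome, the secretory vesicle over the sperm nucleus. FMRP is an RNA-binding protein that travels with mRNA in ribonucleoprotein particles and represses or delays translation. Spermatids store many of the mRNAs for their flagellum and acrosome before they use them, which is why mRNAs recovered with FMRP are of interest for these structures. Whether recovery goes with storage or with building them was not tested.

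Values are CPM, read counts scaled to the size of the library. They are not divided by transcript length, so they give reads and do not rank genes by molecules. Recovery is log2 of FMRP RIP over input after adding 1 CPM to each (log2 ratio), and the plain CPM ratio is given with an exact Clopper-Pearson 95% interval from the reads, which covers counting error only. The library totals worked out from the smallest steps of the values were 30849871 input reads and 36506932 FMRP RIP reads. All 4788 listed genes are higher in the FMRP RIP, because the authors listed the genes they had called so. The direction of every Ccdc gene below is therefore fixed by the listing. The paper's methods also give a fold change of at least 1.5 as a limit for FMRP targets. Sizes can thus be described only among genes that passed it. Beyond that limit, the authors kept genes above a log2 fold change of 1 for later work. The log2 limit of 1 used below is set on ratios with 1 CPM added, so its counts need not match theirs. Of 14 marker genes of testis cells, *Sycp1*, a spermatocyte gene, was listed (10.5 CPM in input and 23.8 CPM after FMRP RIP), so the table could not be used to check the tissue.

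The Ccdc genes had a higher median recovery than the listed genes as a whole. Their median log2 ratio was 1.82, with quartiles of 1.23 and 2.74, beside a median of 1.35 and quartiles of 0.92 and 2.0 over all listed genes. Of the 62 genes, 53 (85.5%) had a log2 ratio above 1, beside 70.1% of all listed genes. Above 2 there were 28 (45.2%) beside 25.0%, and above 3 there were 13 (21.0%) beside 6.62%. With 1 CPM added, 61 genes reached a fold of 1.5, *Ccdc122* being the exception, beside 97.3% of all listed genes. The listing used the same fold, so it largely fixes this count for Ccdc and other genes alike. Together the Ccdc genes rose from 1600 CPM before to 7815 CPM after FMRP RIP, a ratio of 4.89, where the listed genes as a whole had 3.89. *Ccdc136* alone held 18.6% of the Ccdc reads in the FMRP RIP and 8.31% in the input, and the ratio of the sums without it was 4.34. The lower limit of the ratio was above 2 for 52 of the genes and above 4 for 26, and it was above 1 for all 62, which the listing largely fixes. These limits were not counted over all listed genes, so the counts do not set the Ccdc genes apart.

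**Figure D1:**
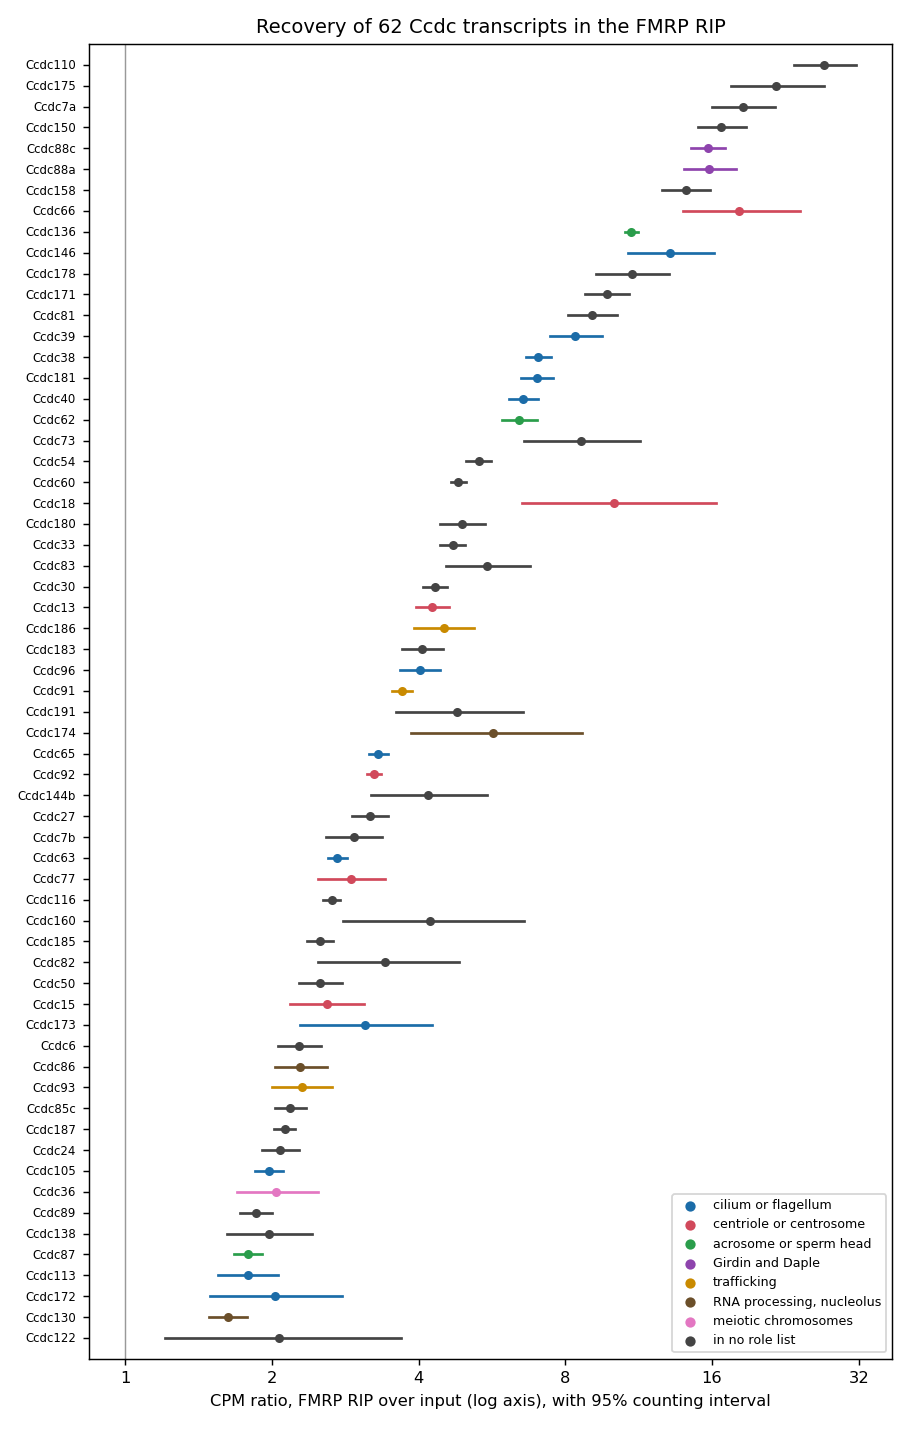
CPM ratio of FMRP RIP over input (x axis, log scale) for each of the 62 Ccdc genes (y axis), ordered by the log2 ratio with 1 CPM added and coloured by role. Points are the ratio of 1 library to 1 library, and bars are 95% counting intervals. The ratios run from 1.63 for *Ccdc130* to 27.2 for *Ccdc110*.

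With 1 CPM added, the 4 genes with the highest log2 ratios have no listed role in cilium, centrosome or acrosome. With nothing added, *Ccdc66* of the centrosome list passed *Ccdc150*, with log2 ratios of 4.19 and 4.06. *Ccdc110* (ENSMUSG00000071104, chromosome 8 from 45934619 to 45944145, build GRCm38), which is known as a cancer-testis antigen, had 6.26 CPM in input and 170.3 CPM after FMRP RIP, a ratio of 27.2 (23.6 to 31.6). *Ccdc175* (chromosome 12 from 72101300 to 72185029) had 2.79 CPM and 60.4 CPM, a ratio of 21.7 (17.5 to 27.2). Their intervals overlap, and overlap alone does not decide whether these 2 ratios differ. *Ccdc7a* had 6.14 CPM in input and 113.6 CPM after FMRP RIP, a ratio of 18.5 (16.0 to 21.6). *Ccdc150* had 10.4 CPM and 174.7 CPM, a ratio of 16.7 (15.0 to 18.8). By log2 ratio, these genes stood at ranks 30, 64, 66 and 76 among the 4788 listed genes. *Ccdc158*, with 10.4 CPM in input and 147.4 CPM after FMRP RIP, followed at rank 106, after the *Ccdc88* genes described below.

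With 1 CPM added, cilium and flagellum genes had log2 ratios from 0.75 to 3.37, below those of the 9 highest Ccdc genes. With nothing added, *Ccdc146* of this list passed *Ccdc136*, with 3.72 and 3.45. Of 22 Ccdc genes in this list, 12 were listed (54.55%), beside 44.5% of all Ccdc genes of the reference annotation. Their median was 1.83. A log2 ratio above 1 was found in 9 of the 12 (75.0%), near the 70.1% of all listed genes. The highest was *Ccdc146* (chromosome 5 from 21292961 to 21424677), a microtubule-associated protein needed for the sperm flagellum, with 3.37 CPM in input and 44.3 CPM after FMRP RIP, a ratio of 13.1 (10.8 to 16.2). *Ccdc39* (chromosome 3 from 33812362 to 33844310) and *Ccdc40* (chromosome 11 from 119228572 to 119265238) encode partners that form the ruler setting the repeat along the axoneme. *Ccdc39* had 9.34 CPM and 78.3 CPM, a ratio of 8.39 (7.43 to 9.51). *Ccdc40* had 29.7 CPM and 194.8 CPM, a ratio of 6.56 (6.12 to 7.04). The ratios of the partners were of similar size, although their intervals do not overlap. *Ccdc38*, which acts in flagellar biogenesis, had 42.1 CPM in input and 296.8 CPM after FMRP RIP, and *Ccdc181*, a microtubule-binding flagellar protein, had 24.2 CPM and 169.2 CPM. Their ratios of 7.04 (6.65 to 7.47) and 7.0 (6.48 to 7.56) lay beside that of *Ccdc40*, with overlapping intervals.

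A middle group of axonemal genes was recovered less. *Ccdc96*, whose product binds that of *Ccdc113* in the axoneme, had 17.1 CPM in input and 68.6 CPM after FMRP RIP, a ratio of 4.02 (3.66 to 4.43). *Ccdc65*, a subunit of the nexin-dynein regulatory complex that links neighbouring doublets, had 79.5 CPM and 262.7 CPM, a ratio of 3.30 (3.16 to 3.46). *Ccdc63*, needed to dock outer dynein arms in sperm, had 76.4 CPM and 208.4 CPM, a ratio of 2.73 (2.60 to 2.86). *Ccdc63* and *Ccdc65* had the most reads of the cilium list in the input, yet each of the 5 genes from *Ccdc146* to *Ccdc40* had a higher ratio. The other genes that attach or dock dynein arms, *Ccdc103*, *Ccdc114* and *Ccdc151*, are not in the table and were not analysed here.

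The lowest log2 ratios of the cilium list belonged to genes of several parts of the axoneme. *Ccdc105* and *Ccdc173*, whose products line the inside of doublet microtubules, had ratios of 1.97 (1.84 to 2.10; 42.0 CPM and 82.7 CPM) and 3.10 (2.28 to 4.27; 1.75 CPM and 5.42 CPM). With 1 CPM added, *Ccdc173* fell to a log2 ratio of 1.22, since its input level is near the value added. *Ccdc172*, from the sperm midpiece, had 1.94 CPM in input and 3.94 CPM after FMRP RIP, a ratio of 2.03 (1.49 to 2.79). *Ccdc113* had 9.63 CPM and 17.2 CPM, a ratio of 1.78 (1.55 to 2.06). That is below the 4.02 of its binding partner *Ccdc96*, and the 2 intervals do not overlap.

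**Figure D2:**
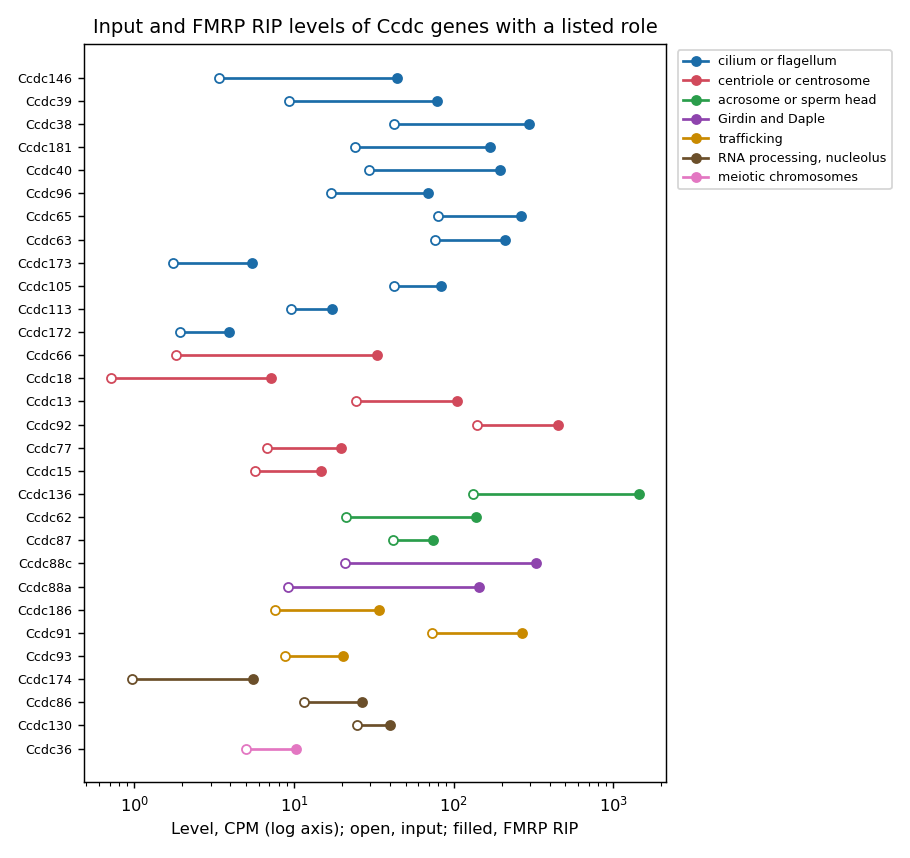
Input (open) and FMRP RIP (filled) levels in CPM (x axis, log scale) of the 30 Ccdc genes in a role list, with 1 library per point. The longest lines are those of *Ccdc66*, *Ccdc146*, *Ccdc136* and the *Ccdc88* genes, and the shortest that of *Ccdc130*.

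Of 13 genes of the centriole and centrosome list in the reference annotation, 6 were listed (46.15%), near the 44.5% of all Ccdc genes there. Their median log2 ratio was 1.87. With 1 CPM added, each of the 6 was above 1, beside 70.1% of all listed genes, and with 5 CPM added *Ccdc15* fell below 1, to 0.89. *Ccdc66* (chromosome 14 from 27481090 to 27508460), which binds microtubules and resides at centriolar satellites, the granules around centrosomes, stood out with 1.82 CPM in input and 33.0 CPM after FMRP RIP, a ratio of 18.2 (13.9 to 24.2). *Ccdc18*, another satellite protein, had 0.71 CPM and 7.18 CPM, and its 22 input reads gave a ratio of 10.1 with a wide interval (6.51 to 16.3). *Ccdc13*, a satellite protein that acts in ciliogenesis, had 24.6 CPM and 104.8 CPM, a ratio of 4.26 (3.94 to 4.62). *Ccdc66* was thus recovered more than *Ccdc13* beyond counting error. The intervals of *Ccdc18* and *Ccdc66* overlap, and overlap alone does not decide whether their ratios differ. The other 3 were lower. *Ccdc92*, at the interface of centriole and cilium, had 139.8 CPM in the input, the highest of all 62 genes, and 453.1 CPM after FMRP RIP, a ratio of 3.24 (3.14 to 3.35). *Ccdc77* had 6.80 CPM and 19.8 CPM, a ratio of 2.91 (2.49 to 3.41). *Ccdc15*, from the inner scaffold of the centriole, had 5.67 CPM and 14.7 CPM, a ratio of 2.59 (2.18 to 3.09), which overlaps that of *Ccdc77*.

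The 3 listed acrosome genes, of 5 in that list, differed widely. *Ccdc136* (ENSMUSG00000029769, chromosome 6 from 29396309 to 29426994), needed to form the acrosome, rose from 132.9 CPM before to 1453 CPM after FMRP RIP, the highest FMRP RIP value of the 62 genes. Its ratio was 10.9 (10.6 to 11.3), from 4100 and 53038 reads. *Ccdc62*, which acts in spermiogenesis and at the acrosome, had 21.3 CPM and 137.1 CPM, a ratio of 6.43 (5.93 to 6.99). *Ccdc87* (chromosome 19 from 4839366 to 4842528) had 41.6 CPM and 74.2 CPM, a ratio of 1.79 (1.67 to 1.91). No 2 of these intervals overlap, and *Ccdc87* was the only acrosome gene with a log2 ratio below 1, at 0.82. The log2 ratios of the acrosome genes thus ran from 0.82 to 3.44, within a range of 0.51 to 4.56 for all 62 genes.

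The *Ccdc88* genes encode large scaffolds that couple G proteins to the cytoskeleton and to signalling at the membrane, and 2 of the 3 were listed. *Ccdc88a*, or Girdin, an actin-binding modulator of G proteins, had 9.11 CPM in input and 144.0 CPM after FMRP RIP, a ratio of 15.8 (14.0 to 17.9). *Ccdc88c*, or Daple, a partner of Dishevelled in Wnt signalling, had 20.8 CPM and 326.3 CPM, a ratio of 15.7 (14.5 to 17.0). These paralogs lie on chromosomes 11 and 12, all their reads were whole, and their ratios were the same within counting error. *Ccdc88b* was not analysed here. Both had higher ratios than each of the 12 cilium genes, although the interval of *Ccdc146* overlaps both.

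The neighbours *Ccdc7a* and *Ccdc7b* showed the opposite. They lie next to each other on chromosome 8, from 128734235 to 129065517 and from 129067134 to 129183732. *Ccdc7b* had 9.46 CPM in input and 27.9 CPM after FMRP RIP, a ratio of 2.95 (2.58 to 3.37), far below the 18.5 of *Ccdc7a*. Both carry fractions of reads in at least 1 library, and how reads were divided between genes is not given in the sources used here, so the split between these 2 is uncertain.

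Other Ccdc genes with known roles form short lists. The median log2 ratio of the trafficking genes was 1.87, above the 1.35 of all listed genes and close to the 1.83 of the cilium genes. In the trafficking list, with 3 of 7 listed, *Ccdc186*, which acts in dense-core vesicle formation, had 7.59 CPM in input and 34.1 CPM after FMRP RIP (log2 ratio 2.03), and *Ccdc93*, of an endosomal recycling complex, had 8.82 CPM and 20.3 CPM (1.12). *Ccdc91*, a partner of Golgi adaptors, lay between them at 1.87. In the list of RNA processing and the nucleolus, with 3 of 9 listed, *Ccdc174* had 0.97 CPM and 5.53 CPM (1.73), and *Ccdc130*, a splicing factor, had 24.7 CPM and 40.1 CPM (0.68). The median of these 3 was 1.13, below that of all listed genes. *Ccdc36*, better known as *Iho1*, an organiser of meiotic DNA breaks, had 5.0 CPM and 10.2 CPM, a log2 ratio of 0.90. None of the 3 mitochondrial and 4 secreted Ccdc genes that the lists and the reference share was in the table. These are few genes, beside 44.5% of all Ccdc genes of the reference annotation that were listed.

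The other Ccdc genes, 32 in all, are in none of the role lists. Of these, 29 (90.6%) had a log2 ratio above 1, beside 70.1% of all listed genes. Besides the 5 high ones above, *Ccdc178*, *Ccdc171* and *Ccdc81* passed a log2 ratio of 3, with 3.21, 3.19 and 3.07. *Ccdc171* had 12.7 CPM before and 123.8 CPM after precipitation, a ratio of 9.75 (8.79 to 10.8). Between 2 and 3 stood *Ccdc73*, *Ccdc54*, *Ccdc60*, *Ccdc180*, *Ccdc33*, *Ccdc83* and *Ccdc30*. Between 1 and 2 stood *Ccdc183*, *Ccdc191*, *Ccdc144b*, *Ccdc27*, *Ccdc7b*, *Ccdc116*, *Ccdc160*, *Ccdc185*, *Ccdc82*, *Ccdc50*, *Ccdc6*, *Ccdc85c*, *Ccdc187* and *Ccdc24*. *Ccdc6*, known as a fusion partner of the kinase Ret in tumours, had 16.6 CPM before and 37.9 CPM after precipitation, a ratio of 2.28 (2.06 to 2.52). Genes named here beyond the highest and lowest were chosen after their values were seen.

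The low end of recovery held 9 genes with a log2 ratio below 1. *Ccdc122* had the lowest value, 0.51, from 20 and 49 reads (0.65 CPM and 1.34 CPM), with an interval of the ratio from 1.21 to 3.68, and it is named although it has under 100 reads. Its place rests on the added 1 CPM, since its plain ratio of 2.07 exceeds that of several genes here. With nothing added, *Ccdc122*, *Ccdc36* and *Ccdc172* passed a log2 ratio of 1, at 1.05, 1.03 and 1.02, and 56 of the 62 genes were above 1, beside 81.2% of all listed genes. *Ccdc130* followed with a ratio of 1.63 (1.49 to 1.78), then *Ccdc172*, *Ccdc113* and *Ccdc87*. *Ccdc138* had 4.61 CPM in input and 9.09 CPM after FMRP RIP, a log2 ratio of 0.85, and *Ccdc89* had 31.7 CPM and 58.9 CPM, a log2 ratio of 0.87. *Ccdc36* and *Ccdc105* complete the 9. *Ccdc87* and *Ccdc130* were the genes whose upper limit stayed under a ratio of 2. Just above a log2 ratio of 1 stood *Ccdc24* with 1.03, and just below it *Ccdc105* with 0.96.

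The input level showed little relation to the recovery of Ccdc genes. Across the 62 genes, Spearman's rho between input CPM and log2 ratio was -0.04, beside 0.25 across all 4788 listed genes. Both share the 2 libraries, genes are not replicates, and the input enters both axes. Without the added 1 CPM, rho was -0.21 for the Ccdc genes and -0.09 for the 4775 listed genes above 0 in the input, so the sign over all listed genes rests on the added CPM. In each class of input level, Ccdc genes had the higher median log2 ratio. Under 1 CPM it was 1.53 for 4 Ccdc genes beside 1.0 for all listed genes. From 1 to under 10 CPM it was 1.77 for 23 genes beside 1.29, and from 10 to under 100 CPM 1.91 for 32 genes beside 1.54. At 100 CPM or more, *Ccdc60*, *Ccdc92* and *Ccdc136* had a median of 2.26 beside 1.56. When the listed genes were divided into 10 classes of equal size by input, 40 of the 62 Ccdc genes lay above the median of their class, beside 49.9% of all listed genes. *Ccdc60*, of no listed role, rose from 116.2 CPM to 560.8 CPM, a ratio of 4.83 (4.66 to 5.0).

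**Figure D3:**
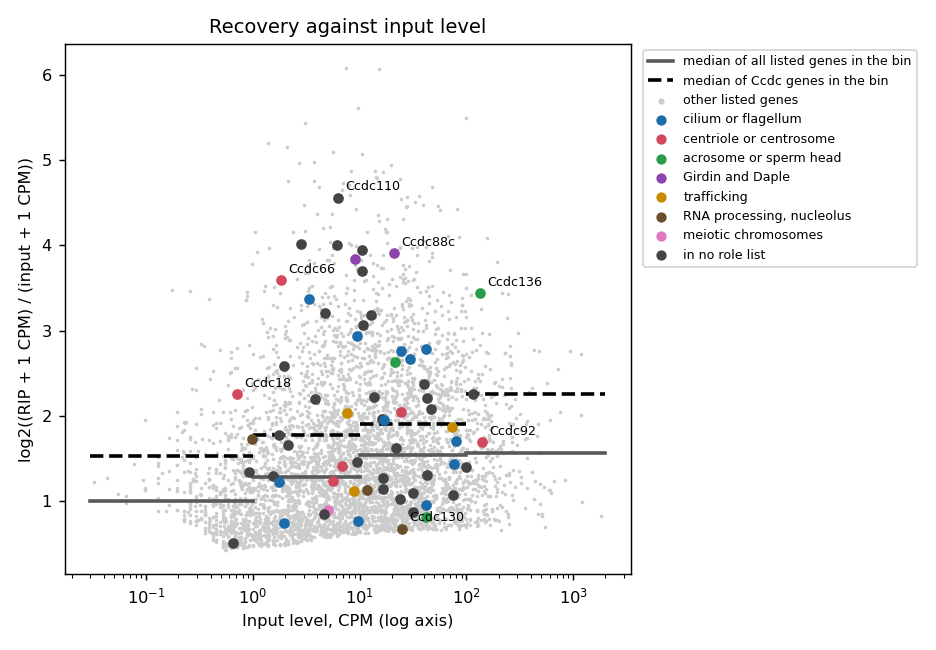
Log2 ratio with 1 CPM added (y axis) against input level in CPM (x axis, log scale) for the Ccdc genes, coloured by role, and the other listed genes (grey), each from 1 library per group. Horizontal lines are medians within 4 classes of input level. The 13 listed genes at 0 in the input, none a Ccdc gene, are not drawn. The Ccdc medians, from 1.53 to 2.26, lie above those of all listed genes, from 1.0 to 1.56, in each class.

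By known role, the input levels overlapped as well. Cilium genes ranged from 1.75 to 79.5 CPM in the input, centrosome genes from 0.71 to 139.8 CPM and acrosome genes from 21.3 to 132.9 CPM. Above the median of their input class lay 8 of 12 cilium, 4 of 6 centrosome and 2 of 3 acrosome genes. Of the 32 genes in no list, 21 did, beside 49.9% of all listed genes. The median log2 ratio of those 32 was 1.87, beside 1.83 for cilium and 1.87 for centrosome genes, so these medians lay close together with 1 CPM added. With 5 CPM added, the cilium median was 1.70 and the centrosome median 1.38, so their closeness rests on the value added. The acrosome median of 2.63 rests on 3 genes.

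Longer Ccdc genes tended to have higher recovery, with length taken as gene span, introns included. Spearman's rho between span and log2 ratio was 0.36 across the 62 Ccdc genes and 0.16 across all listed genes, a description over genes that share both libraries. When the Ccdc genes were split into 3 parts by span, at 28.9 kb and 72.3 kb, the median log2 ratio rose from 1.40 to 2.04 and 2.25, beside 1.20, 1.36 and 1.53 for all listed genes within the same limits. Limits of 10 and 100 kb were added after the values were seen. The 12 Ccdc genes over 100 kb, among them *Ccdc7a*, *Ccdc88a*, *Ccdc88c*, *Ccdc146*, *Ccdc150* and *Ccdc178*, had a median of 3.20, beside 1.52 for the 1223 listed genes of that span. The 12 Ccdc genes under 10 kb had a median of 1.32, beside 1.17 for 428 listed genes. In this group, *Ccdc54*, *Ccdc183* and *Ccdc185* were chosen after their values were seen. *Ccdc54*, the shortest at 1.3 kb, had 40.2 CPM and 213.6 CPM, a log2 ratio of 2.38, and *Ccdc185* at 2.06 kb had 42.7 CPM and 107.1 CPM, a log2 ratio of 1.31. *Ccdc110*, at 9.53 kb, had the highest log2 ratio of the 428 short listed genes, 4.56, and *Ccdc183*, at 9.04 kb, had 1.96. *Ccdc7b*, at 116.6 kb, had 1.47. Input level moved the other way, with rho of -0.25 between span and input across Ccdc genes, and span is not the length of the mRNA, so its part in the result was not tested.

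**Figure D4:**
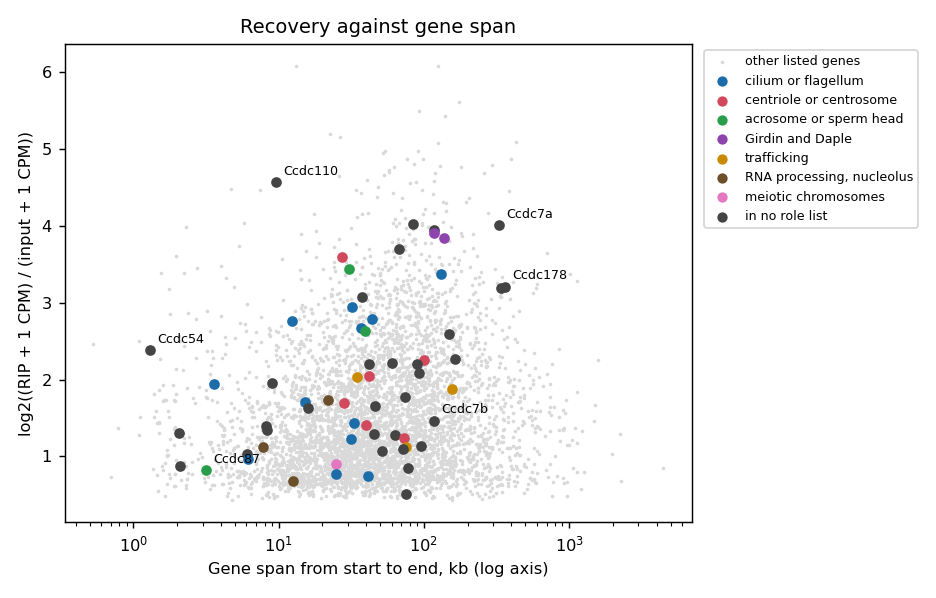
Log2 ratio with 1 CPM added (y axis) against gene span in kb (x axis, log scale) for the Ccdc genes, coloured by role, and the other listed genes (grey), each from 1 library per group. The median of the 12 Ccdc genes under 10 kb is 1.32 and that of the 12 over 100 kb is 3.20, with *Ccdc110* at 4.56 among the short genes and *Ccdc7b* at 1.47 among the long ones.

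Ccdc genes were also listed often. Of 137 protein-coding genes of the reference annotation with such a symbol, 61 were listed (44.5%), beside 21.3% of all its 21900 protein-coding genes, whether expressed in testis or not. *Ccdc36* carries its newer symbol there and is the 62nd gene of the table. The spans used here are those of the reference annotation, which differ for some genes from the positions in the table used above. Under 10 kb of span, 10 of 43 Ccdc genes were listed (23.3%) beside 4.91% of all genes, from 10 to 50 kb 24 of 56 (42.9%) beside 22.1%, and over 50 kb 27 of 38 (71.1%) beside 46.2%. The reference holds 76 Ccdc genes that are not in the table, and no value of theirs was analysed here, so whether they were unchanged, lower or unexpressed is not known. The listed genes lie on 18 chromosomes, with 8 of them on chromosome 5.

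The position of each of the 62 genes overlapped that of the same gene in the reference annotation. The positions of 37 of them overlap another gene of any type, and those of 15 overlap another protein-coding gene. Among the 15 are *Ccdc38* with *Snrpf*, *Ccdc39* with *Ttc14*, *Ccdc63* with *Myl2* and *Ccdc66* with *Tasor*. Also among them are *Ccdc110* with *1700029J07Rik*, *Ccdc146* with *Fgl2* and *Ccdc175* with *Jkamp*. The sources used here do not state whether reads were counted by strand, so reads of overlapping genes could not be told apart. Fractions of reads occurred in 15 genes, with a median log2 ratio of 1.41, and the 47 genes with whole reads had 2.03.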

How the data were processed

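The libraries were 1 input and 1 FMRP RIP-seq library of wild-type adult testis (mouse). The submitters' processing notes name STAR and GRCm38 (mm10), and the counting tool is not given in the sources used here. The authors deposited CPM values per gene, for the protein-coding genes they called higher with edgeR; their fold change and p-value columns were not used. The smallest steps of the deposited CPM gave library totals of 30849871 and 36506932 reads. Within 0.005 read, 78.4% and 78.8% of values above 0 were whole reads, so no count test was run. Each input read equalled 0.0324 CPM and each FMRP RIP read 0.0274 CPM. The listed genes held 14.2% of the input and 55.2% of the FMRP RIP reads.

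Log2 ratios were computed with 1 CPM added, and intervals from rounded reads. Genes were named by a rule, and those outside it, such as *Ccdc122*, after their values were seen: the highest and lowest log2 ratios among genes with at least 100 reads, the members of the main role lists, and the extremes of the others. The Ccdc genes, the 9 role lists and the rule were chosen with earlier results of these data known. The role lists were written from general knowledge, so a gene in none of them may still have such a role. Symbols were matched to RefSeq of GRCm38.p6, 61 directly and 1 through a synonym. Functions were tested on simulated libraries. Alternatives were added values of 5 CPM, 0.125 CPM and none, minimum levels, other scaling and other symbol patterns. Protein length and identity between proteins were planned but not analysed here. Calculations used scipy 1.17.1, pandas 2.3.3 and numpy 2.4.6 under Python 3.11.15, and plots matplotlib 3.10.9.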

Additional observations from a re-analysis of the deposited data

How the results depend on the processing

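The count of Ccdc genes above a log2 ratio of 1 was 53, with 42 when 5 CPM were added (51.7% of all listed genes) and 62 when libraries were scaled to reads of genes not listed, where 99.96% of all listed genes passed as well. The median of 1.82 was 1.60 with 5 CPM added (all listed genes 1.04), 2.01 with a smaller value added (1.57), 2.07 with none (1.61) and 2.73 with that scaling (2.24), which multiplies each FMRP RIP value by 1.92. It stayed above that of all listed genes in each of these fits, with either minimum level, with symbols ending in a letter left out, and with the renamed genes added.

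With 5 CPM added, the role medians were 1.70 for cilium, 1.38 for centrosome and 2.43 for acrosome. They were 3.54 for the *Ccdc88* genes, 1.64 for trafficking and 0.82 for RNA processing. With the other scaling they were 2.76 for cilium, 2.80 for centrosome, 3.56 for acrosome, 4.81 for the *Ccdc88* genes, 2.81 for trafficking and 2.04 for RNA processing. A minimum of 1 CPM in both libraries removed *Ccdc18* and *Ccdc174* from their lists and gave 1.69 for centrosome and 0.90 for RNA processing. The rank correlation (Spearman) of input with log2 ratio across Ccdc genes was 0.24 with 5 CPM added, -0.18 with the smaller value and -0.21 with none, so its sign rests on the value added. A single value was called moved when it changed by more than the distance from the middle of its log2 counting interval to either end. By that rule, 44 of the 62 moved with 5 CPM added, 10 with none, 6 with the smaller value and 61 with the other scaling. No paired analysis was possible because 1 library stands for each group. Depth limits *Ccdc122* and *Ccdc18* most, with 20 and 22 input reads.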

Other observations

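Many genes once numbered as Ccdc now carry other names. Of 54 such protein-coding genes in the reference annotation, 28 were listed (51.9%). That stood beside 44.5% of its Ccdc genes and 21.3% of all its protein-coding genes. The 54 genes had a median span of 33.85 kb, beside 17.15 kb for all protein-coding genes, and longer genes were listed more often. The median log2 ratio of the 28 was 1.41, below the 1.82 of the genes that kept the name and near the 1.35 of all listed genes. *Cep83*, formerly *Ccdc41*, a distal appendage protein of the centriole, had 5.25 CPM in input and 115.2 CPM after FMRP RIP, a ratio of 21.9 (18.8 to 25.8). *Cfap58*, formerly *Ccdc147*, a flagellar protein, had 8.33 CPM and 149.1 CPM, a ratio of 17.9 (15.8 to 20.4). *Gm8251*, formerly *Ccdc168*, had 3.60 CPM and 51.9 CPM, a ratio of 14.4 (11.9 to 17.6).

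*Drc1* and *Drc7*, subunits of the nexin-dynein regulatory complex together with *Ccdc65*, had ratios of 1.84 (1.71 to 1.97; 36.4 CPM and 66.8 CPM) and 2.02 (1.88 to 2.17; 35.2 CPM and 71.1 CPM). Both lie below the 3.30 (3.16 to 3.46) of *Ccdc65*, and their own intervals overlap. These genes were added to the comparison after the values were seen.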
